A study of Mus musculus with 23 samples.

Results

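The Adam and Adamts genes were followed through 6 days of colitis caused by dextran sodium sulphate (DSS), a detergent-like polymer that injures the colon lining of mice that drink it. The members were chosen by name: all genes whose array symbol begins with Adam and a digit, with Adamts or with Adamtsl, and Adamdec1. This gave 49 genes of 18193 with a usable symbol, read by 83 of 45037 probe sets, while 5 further probe sets that carry several symbols were left unnamed. RNA of colon tissue was hybridised to Affymetrix Mouse Genome 430 2.0 arrays, 1 array per mouse, with separate mice at each day. The groups were C57BL/6J mice aged 12 to 14 weeks: 5 untreated mice at day 0, and 6 mice each after 2, 4 and 6 days of 3% DSS in the drinking water. The labels name the tissue only as colon, so which segment or layers were taken is not known, and each value mixes all cells of that piece. In such tissue, more or fewer cells of a type and more or less RNA per cell cannot be told apart.

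ADAM proteins span the cell membrane and carry a metalloprotease and a disintegrin domain; those with an active site cut other membrane proteins near the cell surface and so release growth factors, cytokines and adhesion molecules, a step called shedding. ADAMTS proteins are secreted relatives with thrombospondin repeats that cut the extracellular matrix, chiefly large proteoglycans, procollagens and fibrillin networks. ADAMTS-like proteins share the repeats but have no protease domain. In the gut, ADAM10 and ADAM17 are known for processing Notch, tumour necrosis factor and the ligands of the epidermal growth factor receptor, and TIMP proteins are their natural inhibitors.

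Among the members, 5 stood over 2-fold above day 0 at day 6 and had also passed against day 4: Adamts1, Adamts4, Adamts9, Adam8 and Adam12. Their sequences just before the start site are shown because these genes all rose between day 4 and day 6. Of the 5, Adamts9 had already passed at day 4 against day 0. RefSeq promoters of build GRCm38.p6 were matched for 3 of the 5, each 250 bases long, ending 1 base before the start and written 5′ to 3′ along the gene, which in all 3 lies on the minus strand. Adamts1 lies at chr16:85803114-85803363, Adamts9 at chr6:92943535-92943784 and Adam8 at chr7:139992563-139992812, and capitals mark matches to the motifs named after them.
Adamts1: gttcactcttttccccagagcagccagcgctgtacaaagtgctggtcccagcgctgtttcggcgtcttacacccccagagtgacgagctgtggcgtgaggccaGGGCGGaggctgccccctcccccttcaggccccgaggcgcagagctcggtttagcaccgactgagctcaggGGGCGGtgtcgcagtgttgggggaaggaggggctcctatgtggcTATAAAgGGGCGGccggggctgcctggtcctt
Adamts9: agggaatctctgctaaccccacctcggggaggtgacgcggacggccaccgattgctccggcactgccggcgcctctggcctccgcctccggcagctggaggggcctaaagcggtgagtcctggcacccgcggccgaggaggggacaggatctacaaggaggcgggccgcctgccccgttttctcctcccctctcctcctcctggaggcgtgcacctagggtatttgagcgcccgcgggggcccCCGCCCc
Adam8: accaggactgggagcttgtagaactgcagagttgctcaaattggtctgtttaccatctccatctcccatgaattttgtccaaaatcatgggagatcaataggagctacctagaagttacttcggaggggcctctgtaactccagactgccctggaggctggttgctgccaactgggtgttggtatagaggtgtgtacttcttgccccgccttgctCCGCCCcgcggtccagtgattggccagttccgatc

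Motifs were searched on both strands. They were TATAAA for the TATA box, GGGCGG for the GC box bound by Sp factors, TGANTCA for AP-1, which can hold Fos and Jun proteins, TTCNNNGAA for STAT factors, TGACGTCA for the CRE bound by CREB, and the NF-kappaB motif. The Adamts1 window held the TATA box from -32 to -27 and GC boxes from -147 to -142, from -76 to -71 and from -25 to -20. A single GC box lay from -7 to -2 in Adamts9 and from -35 to -30 in Adam8. Of 32851 mouse promoters of the same length, 32.7% held a GC box and 12.4% the TATA box. AP-1 letters stood in 6.75% of promoters, STAT letters in 7.02%, CRE letters in 1.55% and NF-kappaB letters in 0.356%, and in none of these 3 windows. The base composition was 65.6% G and C in Adamts1, 71.2% in Adamts9 and 52.8% in Adam8, beside a median of 52.4% over all promoters. A match is a description of the letters, and no match says only that these letters are not in this window.

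All 23 arrays had the same trimmed mean signal, and their median signals ran from 97.3 to 121. Epithelial and smooth muscle markers, which define the colon wall, were bright in every group: the 6 epithelial markers summed to 90144 to 96812 signal units at day 0 and the 6 smooth muscle markers to 72752 to 82451. Some arrays stood apart by RNA of other tissues. Pancreatic markers summed to 107461 in day 2 mouse 6 and to 25239 in day 6 mouse 1, against 996 to 1280.5 at day 0. In day 2 mouse 8 and day 4 mouse 8, the 5 squamous epithelium markers summed to 553 and 829.5, against 5299 to 9192 at day 0. The skeletal muscle marker Acta1 read 474 and 351 units on these 2 arrays, against 3095 to 6504 at day 0. At day 6 Acta1 ran from 1516 units in mouse 4 to 17402 in mouse 21, the highest of all arrays. The spiked hybridization controls changed with the day, with mean log2 levels of 11.42 ± 0.06 at day 0, 11.35 ± 0.11 at day 2, 11.02 ± 0.12 at day 4 and 10.90 ± 0.19 at day 6 (SD). No array of day 4 or 6 reached the lowest of day 0 in these controls, so their level and the later days cannot be told apart. The same holds for the log2 ratio of 3′ to 5′ probe sets, a sign of RNA quality. For Actb it was 0.40 to 0.45 at day 0, 0.39 to 0.56 at day 2, 0.53 to 0.70 at day 4 and 0.47 to 0.59 at day 6, and for Gapdh -0.46 to -0.33, -0.38 to -0.28, -0.27 to -0.18 and -0.30 to -0.19 on those days. The part of these measures in the results was not tested, apart from the fit with the hybridization controls as a covariate. None of the markers listed was at 0 on any array.

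By their mean signal over all arrays, 26 of the 49 genes were brighter than the mean array median of 109.9 units and 23 were dimmer. A signal above the median of its own array on at least 5 arrays was found for 28 genes. The 16 ADAM genes of the reproductive tract, which act in sperm or the epididymis, were dim as a group. Only Adam4 of these 16 had a mean above the array median, at 144 ± 56.0 units at day 6 and 140.4 ± 33.7 units at day 0 (SD, n = 6 and 5). None of the 16 passed in limma in any of the 5 comparisons. At day 6 against day 0 their changes ran from -0.37 to 0.62, with adjusted p of 0.201 or more. An unadjusted p under 0.05 was then found for 0 of them, beside 32.1% of all genes. Markers of testis germ cells were also dim, with sums of 85.8 to 207 units over 5 genes at day 6 and 116 to 182 units at day 0. Signals of different genes come from different probes, so their heights are not compared.

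**Figure D1:**
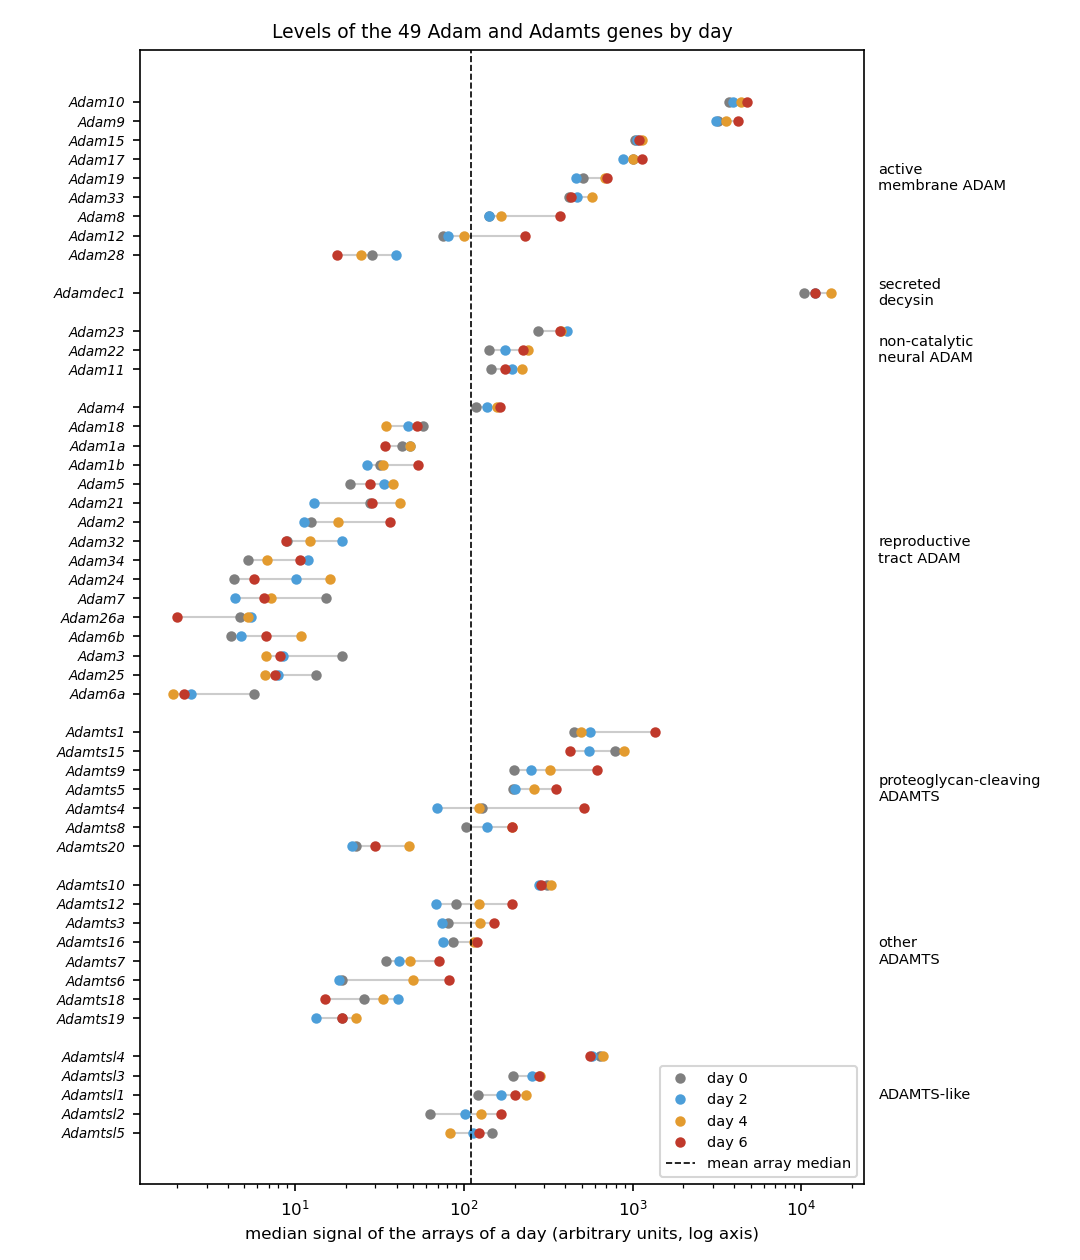
The median signal of each of the 49 genes on a log axis (arbitrary units) is shown for the mice of day 0 (grey, n = 5) and of days 2, 4 and 6 of DSS (blue, orange and red, n = 6 each), grouped by role, with the mean array median of 109.9 as a dashed line. Points on 1 line compare days for 1 probe set, and the day 6 point stands far to the right of the others in Adamts1, Adamts4, Adam8 and Adam12.

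Changes were tested with limma on log2(signal + 16), so that a change is a difference of log2 means that understates the fold of dim genes, and a gene was called at an adjusted p of at most 0.05 over all 18193 genes. Changes are given ± SE from the fit, which held 6 mice at each day of DSS and 5 at day 0. At day 2, limma called 0 of 49 members against day 0, where 0.0055% of all genes were called higher and 0.033% lower, and 4 members had an unadjusted p under 0.05, beside 10.3% of all genes. The lowest adjusted p at day 2 was 0.136, for Adam23. At day 4, 6 members were higher and 0 lower than at day 0, beside 7.26% of all genes higher and 2.44% lower. At day 6, 16 members were higher and 0 lower, beside 12.6% of all genes higher and 9.16% lower. Restricted to genes brighter than the array median, day 6 gave 14 of 26 members higher, beside 16.7% of such genes, and day 4 gave 6 of 26, beside 10.5%. The mean that sets this cut includes the later days, so a gene can pass it by rising. Adam12 averaged 76.9 units at day 0, 85.0 at day 2 and 93.3 at day 4, and passed the cut through 314 units at day 6. Adamts12 and Adamtsl2 also passed it only with day 6. Adamts12 averaged 99.7, 68.2, 127 and 187 units at days 0, 2, 4 and 6, and Adamtsl2 71.1, 85.1, 119 and 209. These shares are therefore partly set by the rises and give them no separate support. The median change of the 49 was 0.21 at day 6, beside 0.05 for all genes, and 0.23 at day 4, beside 0.07. Day 6 groups lay wholly above the day 0 groups for 10 members, beside 7.39% of all genes, and day 4 groups for 7 members, beside 5.46%. These 3 comparisons share the same 5 untreated mice.

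Between successive days, 3 members were higher at day 4 than at day 2, beside 5.13% of all genes higher and 2.03% lower, and 0 were lower. From day 4 on, 7 members were higher at day 6 and 1 was lower, beside 6.11% of all genes higher and 8.61% lower. All 7 lay above the array median by mean signal over all arrays, where 8.23% of genes were higher. That mean includes day 6, and Adam12 was above the cut only through its day 6 signals. In all, 18 genes made 33 calls over the 5 comparisons. Without the 2 arrays with pancreatic RNA the counts of higher members were 7 at day 4 and 18 at day 6 against day 0, and 7 at day 6 against day 4, while 2 were higher at day 4 than at day 2, where Adam10 and Adamts3 no longer passed (adjusted p = 0.0727 and 0.084). Without the 2 arrays low in squamous RNA they were 6, 16 and 6, but no member was then higher at day 4 than at day 2. With the hybridization control level as a covariate, the count at day 6 against day 0 was 3 (Adam10, Adamts1 and Adamts9), at day 4 it was 0, and at day 6 against day 4 it was 6. The 13 calls lost at day 6 all kept their sign, with changes of 0.15 to 1.95. Of these 13, 3 were larger than without the covariate, such as Adamts4 at 1.95 beside 1.64 (adjusted p = 0.091 with it). The others were smaller, some of them near their size, such as Adam12 at 1.57 and Adam8 at 1.20 (adjusted p = 0.138 and 0.12). Further below it were Adamts5 at 0.53 and Adam17 at 0.15.

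**Figure D2:**
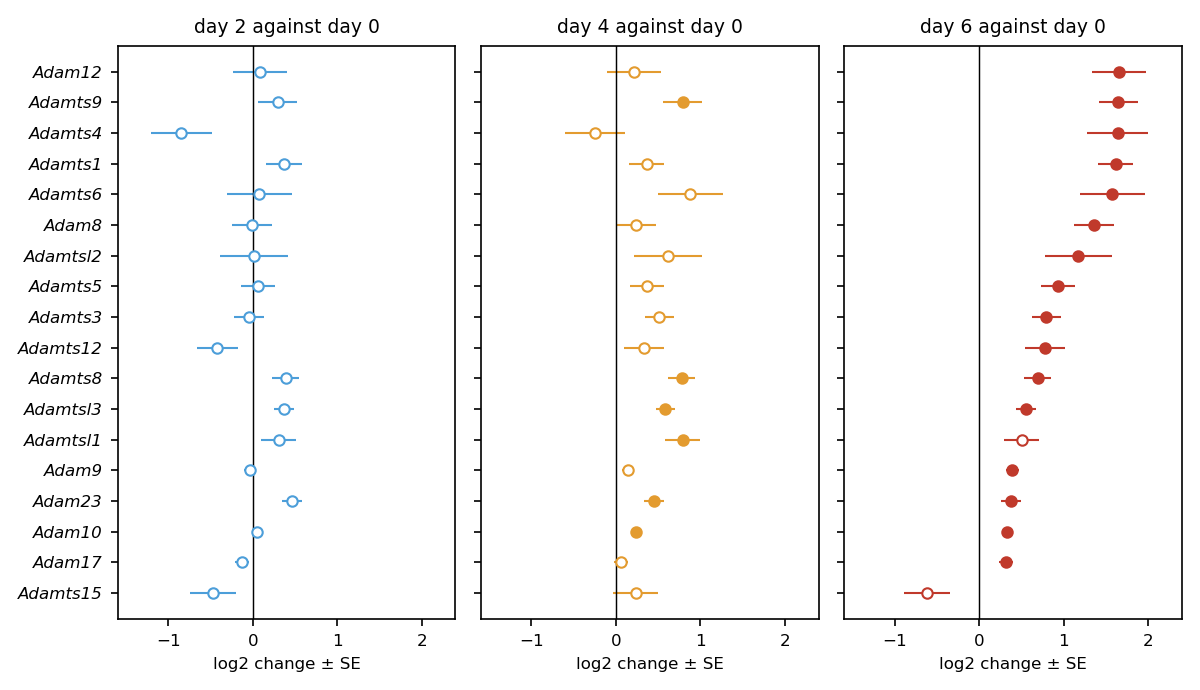
The log2 change from day 0 (point, with its SE from the limma fit as a line) is shown for the 18 called genes at day 2 (n = 6 against 5), day 4 and day 6, with filled points for an adjusted p of at most 0.05. No point is filled at day 2, 6 are filled at day 4 and 16 at day 6, all of them right of 0.

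Of the 9 ADAM genes outside the reproductive group that encode active membrane proteases, 5 rose by day 6 (Adam8, Adam9, Adam10, Adam12 and Adam17). Of all genes, 12.6% were higher. The other 4 did not pass. The 2 steep changes were those of Adam12 and Adam8, at 3.15-fold and 2.56-fold of day 0, while Adam9, Adam10 and Adam17 rose by 1.24-fold to 1.31-fold. Adam10, Adam17 and Adam9 are broadly expressed sheddases. Adam8 is known from leukocytes, and Adam12 from mesenchymal cells of regenerating and fibrotic tissue.

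Adam12 (probe set 1421172_at) had signals of 95.5, 92.8, 75.5, 75.0 and 45.6 in the 5 untreated mice. Its signals were 49.3 to 146 (median 81.2) at day 2, 48.7 to 132 (median 100.4) at day 4 and 125 to 642 (median 231) at day 6. All day 6 mice but mouse 3 stood above every mouse of days 0, 2 and 4, and mouse 3, at 125 units, stood above every untreated mouse. The change at day 6 was 1.66 ± 0.32 against day 0 (limma, adjusted p = 0.000459) and 1.44 ± 0.31 against day 4 (adjusted p = 0.00202). A dimmer probe set of the gene changed by 1.39 and 1.51 (adjusted p = 0.00955 and 0.00605 over all probe sets).

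Adam8 (probe set 1416871_at) read 189.7, 119.9, 162, 141 and 104 units in untreated mice. It then read 117 to 168 (median 141) at day 2, 122 to 269 (median 166) at day 4 and 227 to 829 (median 371) at day 6. The day 6 mice stood clear of the untreated mice and of day 2, and overlapped day 4 through a single day 4 mouse at 269 units. The change was 1.36 ± 0.24 against day 0 (2.56-fold; limma, adjusted p = 0.000148) and 1.12 ± 0.22 against day 4 (adjusted p = 0.00125). Mouse 29 of day 6 held the top Adam8 signal of 829 units.

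Adam10, the sheddase of Notch receptors and E-cadherin, read 3697, 3691, 4118, 3819 and 3556 units in untreated mice. It read 3550.2 to 4144 (median 3939) at day 2, 4108 to 4884 (median 4387) at day 4 and 4377 to 5009 (median 4745) at day 6. Every day 6 mouse exceeded every untreated mouse, although the step was small, at 0.32 ± 0.06 (limma, adjusted p = 0.000231). Adam10 had already passed at day 4, at 0.24 ± 0.06 against day 0 (adjusted p = 0.0107), where 1 day 4 mouse lay just below the highest untreated one, and against day 2 at 0.19 ± 0.06 (adjusted p = 0.0439). The other 3 probe sets of Adam10 did not share this: they changed by 0.12, -0.15 and 0.10 at day 6 and by -0.08, -0.27 and -0.20 at day 4, none of them called. With the mean of the 4 probe sets, Adam10 changed by 0.10 at day 6 (adjusted p = 0.479) and by -0.08 at day 4 (adjusted p = 0.638). The day 4 call also ended with median centring (adjusted p = 0.102), and the call against day 2 ended without any one of 12 arrays (day 0 mice 2 and 4; day 2 mice 1, 6, 7, 8 and 17; day 4 mice 1, 3, 4, 7 and 8), with adjusted p of 0.0502 to 0.111.

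Adam9 read 2959, 3146, 3341, 3487 and 3186 units in untreated mice. Its signals were 2939 to 3471 (median 3137) at day 2, 3443 to 3671 (median 3556) at day 4 and 3396 to 4923 (median 4226) at day 6. All but 1 of the day 6 mice exceeded every mouse of the earlier days, and mouse 3 lay within the untreated range. The change was 0.39 ± 0.07 against day 0 (limma, adjusted p = 0.000329) and 0.25 ± 0.07 against day 4 (adjusted p = 0.0179). The call against day 4 ended without day 6 mouse 7 (adjusted p = 0.0522), without day 6 mouse 21 (adjusted p = 0.0519) over the mice with numbers up to 8 (adjusted p = 0.0667) and with median centring (adjusted p = 0.179).

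Adam17, the tumour necrosis factor converting enzyme, read 865, 1004, 1093, 1012 and 807 units in untreated mice. It read 793 to 969 (median 875) at day 2, 896 to 1128 (median 999.5) at day 4 and 1087 to 1349 (median 1139) at day 6. Of the 6 day 6 mice, 5 stood above all untreated mice and the lowest lay just within their range. The change was 0.31 ± 0.08 against day 0 (limma, adjusted p = 0.00848) and 0.25 ± 0.08 against day 4 (adjusted p = 0.0332). Its other 2 probe sets changed by 0.15 and 0.03 at day 6, neither called, and the mean of the 3 by 0.16 (adjusted p = 0.185). Median centring also ended both calls (adjusted p = 0.114 and 0.193). The call against day 4 further ended without the arrays low in squamous RNA (adjusted p = 0.0908), and it ended without day 4 mouse 1, 6 or 8 or day 6 mouse 4 or 21 (adjusted p of 0.0525 to 0.0873).

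Outside the reproductive group, the active ADAM genes with no call were Adam15, Adam19, Adam28 and Adam33. Adam15 averaged 971 ± 187 units at day 0, 1020.5 ± 139 at day 2, 1131 ± 139 at day 4 and 1119 ± 167 at day 6 (SD), a change at day 6 of 0.21 ± 0.13 (limma, adjusted p = 0.266). Its other 3 probe sets had changes of the opposite sign, between -0.17 and -0.46 at day 6. Adam19, known as meltrin beta, averaged 672 ± 204 units at day 6 and 494 ± 63.0 at day 0, at 0.38 ± 0.17 (adjusted p = 0.105). Adam33 had a day 4 group wholly above days 0 and 2, at 0.36 ± 0.13 against day 0, yet missed the threshold (adjusted p = 0.0838). Adam28, known from lymphocytes, was dim, at 17 ± 12.4 units at day 6 and 26.8 ± 7.06 at day 0.

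Adamdec1 encodes a secreted, shortened relative of the ADAMs that is made in the intestinal lamina propria. Its single probe set was bright in every mouse, at 10359, 10379.6, 10914, 11892 and 10319 units in untreated mice. The signals were 6722 to 16763 (median 12099) at day 2, 10724 to 17727 (median 14975) at day 4 and 11650.0 to 14468 (median 12067) at day 6. The untreated mice lay within a narrow band, while day 2 mice spread both below and above it. No comparison passed: the change was 0.41 ± 0.15 at day 4 (limma, adjusted p = 0.0874) and 0.20 ± 0.15 at day 6 (adjusted p = 0.381).

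The 3 neural ADAM genes, Adam11, Adam22 and Adam23, lack an active site and encode neuronal receptors for LGI proteins. Adam23 rose, with 275, 274, 252, 338 and 233 units in untreated mice. Its signals were 318 to 427 (median 409) at day 2, 341 to 424 (median 379) at day 4 and 302 to 421 (median 371) at day 6. The day 4 mice all exceeded the untreated mice, and Adam23 did not pass at day 4 against day 2 or at day 6 against day 4. The change was 0.47 ± 0.12 at day 2, where it did not pass (limma, adjusted p = 0.136), 0.45 ± 0.12 at day 4 (adjusted p = 0.0151) and 0.38 ± 0.12 at day 6 (adjusted p = 0.0205). The day 4 call ended without day 0 mouse 5 (adjusted p = 0.0524), and the day 6 call without day 0 mouse 3 or 5 or day 6 mouse 7 (adjusted p of 0.0514 to 0.0676) and with median centring (adjusted p = 0.11). Averaged over its 3 probe sets, of which the other 2 were dim, the change was 0.35 at day 4 and 0.15 at day 6 (adjusted p = 0.391 and 0.72). Adam22 had a day 4 group wholly above day 0, at 0.58 ± 0.21, without passing (adjusted p = 0.0788), and Adam11 changed by 0.32 ± 0.22 at day 4 (adjusted p = 0.42).

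**Figure D3:**
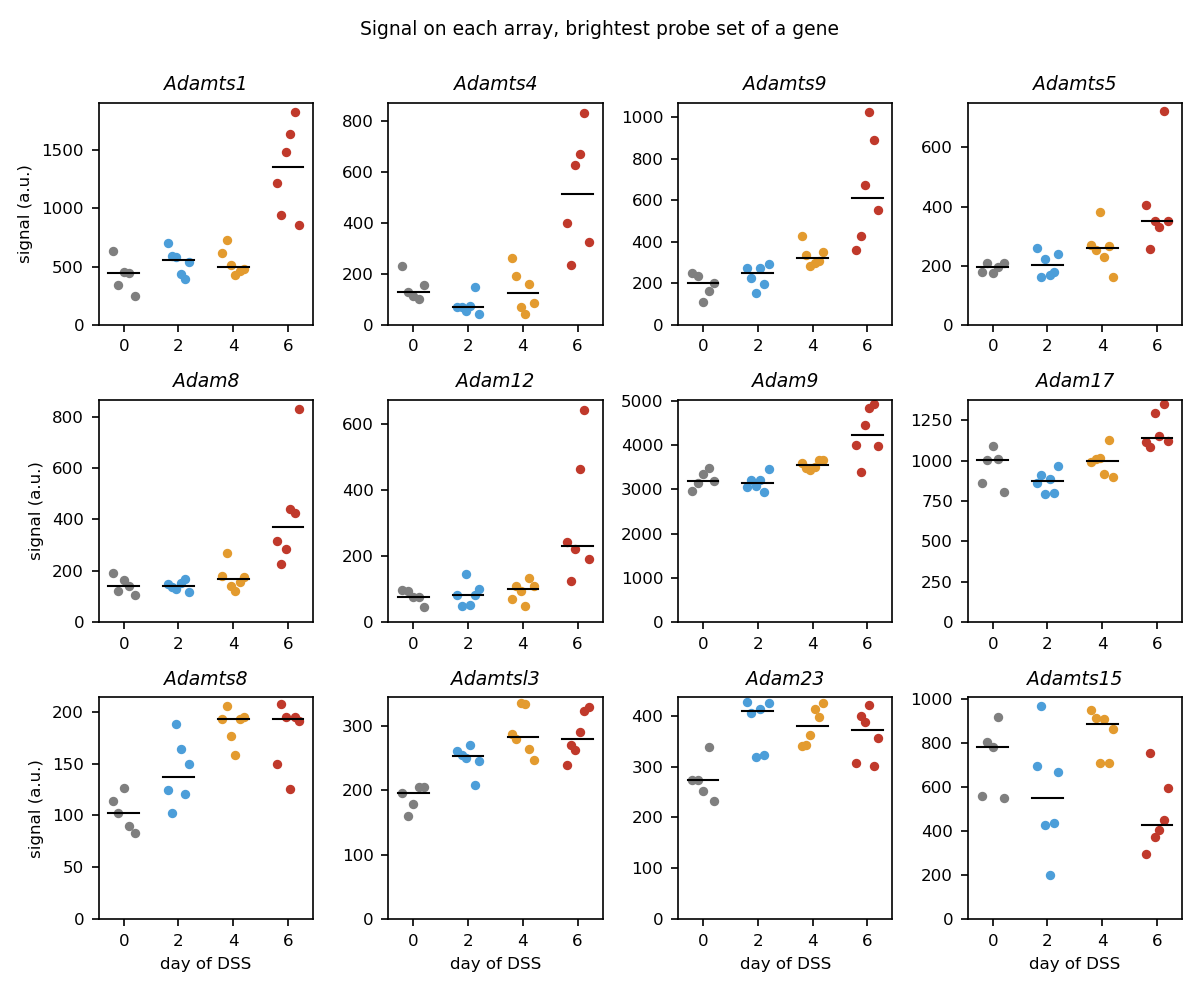
The signal on each array (points, arbitrary units, linear axes from 0) is shown by day of DSS for 12 of the named genes, with the median of each day as a line (n = 5 at day 0, 6 at each later day). For Adamts1 the 6 mice of day 6 stand above every other mouse, while for Adamtsl3 all mice of days 2, 4 and 6 stand above the untreated mice.

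Of the 7 ADAMTS genes of the proteoglycan-cleaving branch, which cut versican and aggrecan, 5 rose by day 6 (Adamts1, Adamts4, Adamts5, Adamts8 and Adamts9). Of all genes, 12.6% were higher at day 6. Adamts1, Adamts4 and Adamts9 were 3.06-fold, 3.11-fold and 3.13-fold of day 0 at day 6. Adamts15 fell at day 6 against day 4, and Adamts20, which was dim, did not pass (0.34 ± 0.36 at day 6 against day 0, limma adjusted p = 0.564).

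Adamts1 (probe set 1450716_at), a versican-cleaving protease whose promoter held the TATA box, read 638, 344, 456, 448 and 247 units in untreated mice. Its signals were 396 to 699 (median 559.9) at day 2, 430.5 to 725 (median 493) at day 4 and 854 to 1828 (median 1352) at day 6. The day 6 mice stood above every mouse of the earlier days, and days 2 and 4 overlapped day 0. The change was 1.61 ± 0.21 against day 0 (limma, adjusted p = 5.02e-06) and 1.25 ± 0.20 against day 4 (2.38-fold, adjusted p = 0.000127).

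Adamts4 (probe set 1452595_at), known as an aggrecanase, read 233, 129, 115, 101 and 157 units in untreated mice. It read 43.2 to 149 (median 69.8) at day 2, 44.5 to 261 (median 123) at day 4 and 236 to 833 (median 516) at day 6. At day 2, 5 of 6 mice lay below all untreated mice, but the comparison did not pass (-0.84 ± 0.36; limma, adjusted p = 0.388). At day 6 all mice exceeded the untreated mice, and the lowest lay within the range of day 4. The change was 1.64 ± 0.36 against day 0 (adjusted p = 0.00149) and 1.88 ± 0.34 against day 4 (3.69-fold, adjusted p = 0.000435). A second probe set changed by 1.67 and 2.23 (adjusted p = 0.0152 and 0.00183 over all probe sets).

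Adamts9 (probe set 1437785_at), another versican-cleaving protease, read 249, 237, 110.0, 163 and 199.6 units in untreated mice. Its signals were 154 to 293 (median 249) at day 2, 283 to 429 (median 322) at day 4 and 359.5 to 1023 (median 612) at day 6. All mice of days 4 and 6 exceeded the untreated mice, and day 6 mice 1 and 3 lay within the day 4 range. The change was 0.79 ± 0.23 at day 4 (limma, adjusted p = 0.0304), 1.65 ± 0.23 at day 6 (adjusted p = 1.28e-05) and 0.85 ± 0.22 at day 6 against day 4 (adjusted p = 0.00943). Its other 2 probe sets changed by 1.55 and 1.44 at day 6 (adjusted p = 4.67e-06 and 0.0132 over all probe sets) and by 0.40 and 0.93 at day 4, where neither passed. The day 4 call ended without day 0 mouse 3, 4 or 5 or day 4 mouse 1 or 3, with adjusted p of 0.0513 to 0.108, and the call of day 6 against day 4 ended over mice numbered 1 to 8 alone (adjusted p = 0.0548).

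Adamts5 (probe set 1422561_at), also known as an aggrecanase, read 178, 208, 175, 195 and 210.2 units in untreated mice. It read 163 to 258 (median 202) at day 2, 162 to 382 (median 260.0) at day 4 and 255 to 723 (median 350.0) at day 6. All day 6 mice exceeded the untreated mice, and mouse 21 stood far above the rest. The change was 0.93 ± 0.20 against day 0 (limma, adjusted p = 0.0015), and against day 4 it was 0.56 ± 0.19, and did not pass (adjusted p = 0.0514). Its other 3 probe sets changed by 0.95, 0.93 and 0.38 at day 6, the first of them called (adjusted p = 0.00157 over all probe sets).

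Adamts8 read 114, 103, 127, 89.4 and 82.8 units in untreated mice. Its signals were 103 to 188 (median 137) at day 2, 158 to 206 (median 193) at day 4 and 126 to 208 (median 193) at day 6. At day 4 all mice exceeded the untreated mice, and 1 day 6 mouse lay within the untreated range. The change was 0.78 ± 0.16 at day 4 (limma, adjusted p = 0.00281) and 0.69 ± 0.16 at day 6 (adjusted p = 0.00236), with -0.08 ± 0.15 between these days (adjusted p = 0.785).

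Adamts15 was the only member with a call downward. It read 560.3, 804, 782, 918 and 552 units in untreated mice and 202 to 969.9 (median 552) at day 2, 709 to 948 (median 886) at day 4 and 296 to 755 (median 427) at day 6. Day 2 mice spread widely, and at day 6 all but 1 mouse lay below every day 4 mouse. The change at day 6 was -0.85 ± 0.26 against day 4 (limma, adjusted p = 0.0259) and -0.62 ± 0.27 against day 0, which did not pass (adjusted p = 0.11). The call ended without day 4 mouse 1 or day 6 mouse 1, 4 or 7, with adjusted p of 0.0515 to 0.0685. In the same comparison 3 of 6 smooth muscle markers fell, beside 8.61% of all genes. Their sums were 64964 to 92429 units at day 6 and 86659 to 111506 at day 4. The part of smooth muscle in the change of Adamts15 was not tested.

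Of the other 8 ADAMTS genes, 3 rose by day 6 (Adamts3, Adamts6 and Adamts12), beside 12.6% of all genes higher. Adamts3 is a procollagen N-propeptidase that also takes part in VEGF-C activation. Adamts6 is a relative of the fibrillin-binding Adamts10, and Adamts12 can cut cartilage oligomeric matrix protein. All 3 were dim, with mean signals near or below the array median. Adamts3 read 81.3, 80.9, 69.4, 72.5 and 85.0 units in untreated mice and 55.2 to 104 (median 73.9) at day 2, 91.4 to 139.8 (median 125) at day 4 and 108 to 207 (median 150.2) at day 6. The mice of days 4 and 6 all exceeded the untreated mice. The change was 0.79 ± 0.17 at day 6 (limma, adjusted p = 0.00156) and 0.56 ± 0.17 at day 4 against day 2 (adjusted p = 0.0412), while day 4 against day 0 did not pass (adjusted p = 0.0618). Averaged over its 2 probe sets, the second of them dim, the change was 0.32 at day 6 against day 0 and 0.19 at day 4 against day 2 (adjusted p = 0.395 and 0.705). The call of day 4 against day 2 also ended without any one of 9 arrays (day 2 mice 1, 6, 7 and 17, and day 4 mice 1, 4, 6, 7 and 8), with adjusted p of 0.0592 to 0.0953.

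Adamts12 read 79.1, 166, 70.5, 89.8 and 92.8 units in untreated mice and 53.4 to 85.3 (median 68.5) at day 2, 92.8 to 176 (median 123) at day 4 and 103 to 311 (median 192) at day 6. Day 4 mice all exceeded day 2 mice, while day 6 overlapped day 0 through untreated mouse 2. The change was 0.78 ± 0.24 at day 6 against day 0 (limma, adjusted p = 0.0203) and 0.75 ± 0.23 at day 4 against day 2 (adjusted p = 0.0457). The first call ended without day 0 mouse 1 or 3 or day 6 mouse 21 (adjusted p of 0.051 to 0.064). The second ended without any one of 12 arrays (day 0 mice 1, 4 and 5, day 2 mice 1, 7, 8, 17 and 52, and day 4 mice 1, 3, 4 and 8), with adjusted p of 0.0501 to 0.111. Averaged over its 2 probe sets, Adamts12 changed by 0.34 at day 4 against day 2, which did not pass (adjusted p = 0.304).

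Adamts6 was above its array's median on 2 of 23 arrays, so its values are near the lower end of what the arrays measure. It read 35.1, 34.3, 4.6, 6.94 and 18.9 units in untreated mice and 3.34 to 50.6 (median 18.3) at day 2, 15.2 to 115 (median 50.3) at day 4 and 55.3 to 123 (median 81.9) at day 6. All day 6 mice exceeded the untreated mice, and day 4 mice spread across both. The change at day 6 was 1.57 ± 0.38 (limma, adjusted p = 0.00397), and it ranged from 0.84 to 2.38 with the pseudocount and the other settings. The remaining 5 genes of the group made no call. Adamts7, known for cutting cartilage oligomeric matrix protein, changed by 1.0 ± 0.42 at day 6 (adjusted p = 0.0923), and Adamts10 by -0.05 ± 0.13 (adjusted p = 0.843). Adamts16, Adamts18 and Adamts19 changed by -0.32 to 0.20 at day 6, with adjusted p of 0.542 or more.

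Among the 5 ADAMTS-like genes, Adamtsl3 rose at both day 4 and day 6, Adamtsl1 at day 4 and Adamtsl2 at day 6. Of all genes, 7.26% were higher at day 4 and 12.6% at day 6. Adamtsl1 and Adamtsl3 encode the matrix proteins known as punctins, and Adamtsl2 and Adamtsl4 bind fibrillin. Adamtsl3 read 196, 159.5, 178, 206 and 206 units in untreated mice and 208 to 269.9 (median 253) at day 2, 248 to 336 (median 283) at day 4 and 239 to 330.2 (median 281) at day 6. Every mouse on DSS exceeded every untreated mouse, from day 2 on. The change was 0.37 ± 0.11 at day 2, which did not pass (limma, adjusted p = 0.217), 0.58 ± 0.11 at day 4 (adjusted p = 0.00205) and 0.56 ± 0.11 at day 6 (adjusted p = 0.000869). At day 2, Adamtsl3 was the 1 member of 49 without overlap, beside 0.956% of all genes higher without overlap.

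Adamtsl1 read 114, 138, 122, 179 and 84.6 units in untreated mice and 101 to 230.0 (median 165) at day 2, 178 to 287 (median 233) at day 4 and 117 to 251 (median 201) at day 6. All but 1 of the day 4 mice exceeded every untreated mouse. The change was 0.79 ± 0.21 at day 4 (limma, adjusted p = 0.0168) and 0.50 ± 0.21 at day 6, which did not pass (adjusted p = 0.0875). Its other probe sets, both dimmer, changed by -0.66 and -0.46 at day 4, and the mean of the 3 by -0.11 (adjusted p = 0.815), so the direction at day 4 depends on the probe set. The call also ended without day 0 mouse 5 (adjusted p = 0.0614).

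Adamtsl2 read 91.1, 50.7, 63.5, 60.5 and 89.6 units in untreated mice and 21.4 to 144 (median 102) at day 2, 60.2 to 149.9 (median 126) at day 4 and 76.6 to 388 (median 166) at day 6. Day 6 mice 7 and 21 stood at 360.4 and 388 units, apart from the other 4, which reached from within the untreated range to 186. The change at day 6 was 1.17 ± 0.40 (limma, adjusted p = 0.0362). It ended without day 0 mouse 2, 3 or 4 or day 6 mouse 4, 7 or 21 (adjusted p of 0.06 to 0.0993), and with a pseudocount of 1, quantile normalization, median centring or mice numbered 1 to 8 alone (adjusted p = 0.0528, 0.0558, 0.0517 and 0.0987). Adamtsl4 averaged 606 ± 123 units at day 6 and 602 ± 70.8 at day 0, and Adamtsl5 averaged 84.7 ± 28.1 units at day 4 and 144 ± 16 at day 0 (adjusted p = 0.0827); neither was called.

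Several members are read by more than 1 probe set, and the remaining 34 probe sets give a second reading that the choice of the brightest did not use. At day 6, 14 of the 17 other probe sets of called genes had the sign of the brightest. When all 45037 probe sets were tested, 6 of the 34 were themselves called, counted in either direction. Of all probe sets, 7.7% were then called higher and 7.59% lower. At day 4 the sign was shared by 4 of 9, and 0 were called, where 4.31% of all probe sets were higher and 4.33% lower. At day 4 against day 2 it was shared by 0 of 5, and at day 6 against day 4 by 6 of 6. The 5 calls that lead the group at day 6, in Adamts1, Adamts4, Adamts9, Adam8 and Adam12, rest on 1 probe set in Adamts1 and Adam8 and are shared by all other probe sets in Adamts4, Adamts9 and Adam12.

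**Figure D4:**
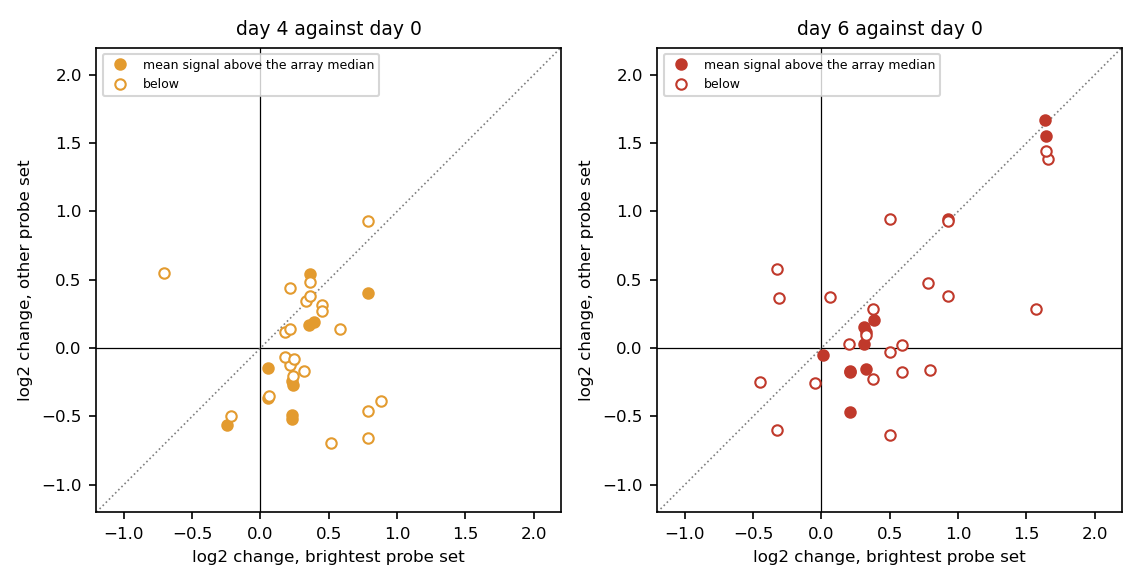
For members with several probe sets, the log2 change of each other probe set (vertical) is set against that of the brightest one (horizontal) at day 4 and day 6 against day 0, with filled points for a mean signal above the array median and the diagonal dotted. At day 6 the points far to the right lie near the diagonal except 1 dim probe set of Adamts6, while at day 4 points lie on both sides of 0.

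The day 6 mice did not contribute evenly. Of the 16 genes that rose, mouse 21 held the highest day 6 signal for 10, mice 7 and 29 for 2 each, mice 1 and 3 for 1 each and mouse 4 for 0. Mouse 3 held the lowest signal for 7 of the 16 and mouse 1 for 4. Without day 6 mouse 21, 14 members were higher than at day 0 and 5 higher than at day 4. Mouse 21 also held the highest signal of all arrays for the squamous marker Krt10, at 16707 units. The same was true of the skeletal muscle markers Acta1, Mylpf and Ckm, at 17402, 7685 and 12018 units. The part of this RNA in the high signals of mouse 21 was not tested.

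The partners of these proteases were taken from 4 lists. Of 13 genes for the activation and transport of ADAMs, 0 rose and 1 fell at day 6, beside 12.6% and 9.16% of all genes. The 1 that fell was Tspan33, a tetraspanin that escorts ADAM10, at -1.44 ± 0.19 against day 0 (limma, adjusted p = 7.90e-06), with 238 ± 87.5 units at day 6 and 647 ± 92.5 at day 0 (SD). Tspan33 also fell against day 4, at -1.42 ± 0.19 (adjusted p = 1.67e-05). The median change of the 13 at day 6 was 0.05, the same as that of all genes.

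Of 8 genes for inhibitors and clearance receptors, 6 rose and 1 fell at day 6, beside 12.6% and 9.16% of all genes, and 4 rose at day 4, beside 7.26%. Timp1, an inhibitor of ADAM10 and of matrix metalloproteinases, averaged 1492 ± 629.8 units at day 6 and 180.1 ± 40.4 at day 0, at 2.87 ± 0.21 (limma, adjusted p = 1.26e-09). Timp3, the TIMP that inhibits ADAM17 and the aggrecanases, rose by 0.67 ± 0.16 at day 6 (adjusted p = 0.00412) and by 0.66 ± 0.16 at day 4 (adjusted p = 0.0114). Reck, a membrane-anchored inhibitor, rose by 0.66 ± 0.11 at day 4 (adjusted p = 0.000755). Timp1 had also risen at day 4, by 0.88 ± 0.21 (adjusted p = 0.00934), and Timp2 by 0.48 ± 0.12 (adjusted p = 0.0112), although averaged over the probe sets of each gene Timp2 changed by -0.06 (adjusted p = 0.827) and Timp3 by 0.25 (adjusted p = 0.275) at day 4. A2m, a general protease inhibitor, rose by 1.26 ± 0.42 (adjusted p = 0.0325) and Timp4 fell by 0.83 on the log2 scale (adjusted p = 0.0362) at day 6. The call of A2m ended without day 0 mouse 2 or 5 or day 6 mouse 1, 7 or 21 (adjusted p up to 0.118), and that of Timp4 without day 0 mouse 2, 3, 4 or 5 or day 6 mouse 1, 4, 7 or 29 (adjusted p up to 0.0951). The 2 calls also ended without the arrays with pancreatic RNA (adjusted p = 0.0636 and 0.0545), and that of A2m over the mice with numbers up to 8 (adjusted p = 0.0756). The median change of the 8 at day 6 was 0.52, beside 0.05 for all genes.

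Of 26 measured genes for membrane proteins known to be shed by ADAMs, 14 rose and 3 fell at day 6, beside 12.6% and 9.16% of all genes, and 6 rose and 1 fell at day 4, beside 7.26% and 2.44%. Il1r2, the decoy receptor for interleukin-1, rose by 2.21 ± 0.31 at day 6 (limma, adjusted p = 1.54e-05), and the adhesion molecule Vcam1 by 2.08 ± 0.20 (adjusted p = 9.79e-08). Ereg and Epgn, ligands of the epidermal growth factor receptor, rose by 2.2 ± 0.33 (adjusted p = 3.23e-05) and 2.06 ± 0.41 (adjusted p = 0.000584). Tnf, the substrate for which ADAM17 is named, averaged 59.6 ± 16.4 units at day 0, 47.8 ± 59.7 at day 4 and 209.8 ± 104 at day 6. At day 6 it rose by 2.07 ± 0.40 against day 4 (adjusted p = 0.000987). At day 4 the 4 largest called changes of the list were those of Hbegf at -2.07 ± 0.38 (adjusted p = 0.00122), Vcam1 at 1.12 ± 0.20, Cdh5 at 0.85 ± 0.22 and Csf1r at 0.74 ± 0.17 (adjusted p = 0.00103, 0.0148 and 0.00609). Hbegf was the 1 gene of the list that fell at day 4, and Cdh5 and Csf1r are also endothelial and macrophage markers. Averaged over its probe sets, Cdh5 changed by 0.53 at day 4 (adjusted p = 0.0989). The median change of the 26 at day 6 was 0.55, beside 0.05 for all genes.

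Of 22 measured genes for ADAMTS substrates and partners in matrix and blood, 12 rose and 0 fell at day 6, beside 12.6% and 9.16% of all genes, and 4 rose at day 4, beside 7.26%. Vcan, the large proteoglycan versican, averaged 1114 ± 420.1 units at day 6 and 379 ± 32.3 at day 0, at 1.44 ± 0.18 (limma, adjusted p = 2.94e-06). Thbs1, thrombospondin-1, rose by 1.5 ± 0.20 (adjusted p = 5.56e-06), Ccbe1, a cofactor of Adamts3 in VEGF-C activation, by 1.19 ± 0.25 (adjusted p = 0.000923) and the procollagen Col1a1 by 0.85 ± 0.20 (adjusted p = 0.00351). At day 4 the called genes were Reln at 0.99 ± 0.17, Ccbe1 at 0.94 ± 0.25, Vcan at 0.63 ± 0.18 and Fn1 at 0.43 ± 0.10 (adjusted p = 0.000667, 0.0171, 0.0282 and 0.00882). Col1a1 is also among the fibroblast markers. Averaged over the probe sets of each gene, none of these 4 passed at day 4: the changes were 0.41, 0.43, 0.13 and 0.09 (adjusted p = 0.295, 0.105, 0.675 and 0.733). At day 6 Vcan and Ccbe1 then still passed, at 0.55 and 0.62 (adjusted p = 0.0104 and 0.00701). The median change of the 22 at day 6 was 0.49, beside 0.05 for all genes, and the Vcan call at day 4 ended without day 0 mouse 1, 3 or 5 or day 4 mouse 1, 3 or 4 (adjusted p up to 0.0686).

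With the hybridization control level as a covariate, 7 of the 13 partner genes named at day 6 against day 0 still passed (Tspan33, Timp1, Il1r2, Ereg, Vcam1, Thbs1 and Vcan), and 0 of the 12 named at day 4 did.

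Markers of several cell types moved at the same days as the proteases. At day 6, 12.6% of all genes were higher than at day 0. Among the markers, 6 of 6 of fibroblasts were higher, with sums of 49283 to 81816 units at day 6 and 34121 to 41254 at day 0. All 6 macrophage markers were higher (8813 to 19547 units at day 6 and 4553 to 6117 at day 0) and so were the 4 measured neutrophil markers (1938 to 12309 units at day 6 and 162 to 421 at day 0). Of 6 endothelial markers 3 were higher (2281 to 4503 units at day 6 and 1609 to 2275 at day 0), and of 4 mesothelial markers 3 (259 to 490.4 units at day 6 and 127 to 245 at day 0). At day 4, 7.26% of all genes were higher. The marker counts higher were then 2 of 6 for fibroblast, 3 of 6 for macrophage, 0 of 4 for neutrophil, 2 of 6 for endothelial, 4 of 6 for smooth muscle and 1 of 4 for mesothelial markers. Of 5 squamous epithelium markers, 1 was called higher at day 6, and the sums did not overlap (16834 to 38832 units at day 6 and 5299 to 9192 at day 0). Skeletal muscle markers (5) gave no call and ran from 2788 to 46514 units at day 6 and from 5651 to 11982 at day 0. Epithelial markers gave no call at day 6 and 2 of 6 fell at day 4, beside 2.44% of all genes lower. The part of these cells in the changes of the Adam and Adamts genes was not tested.

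**Figure D5:**
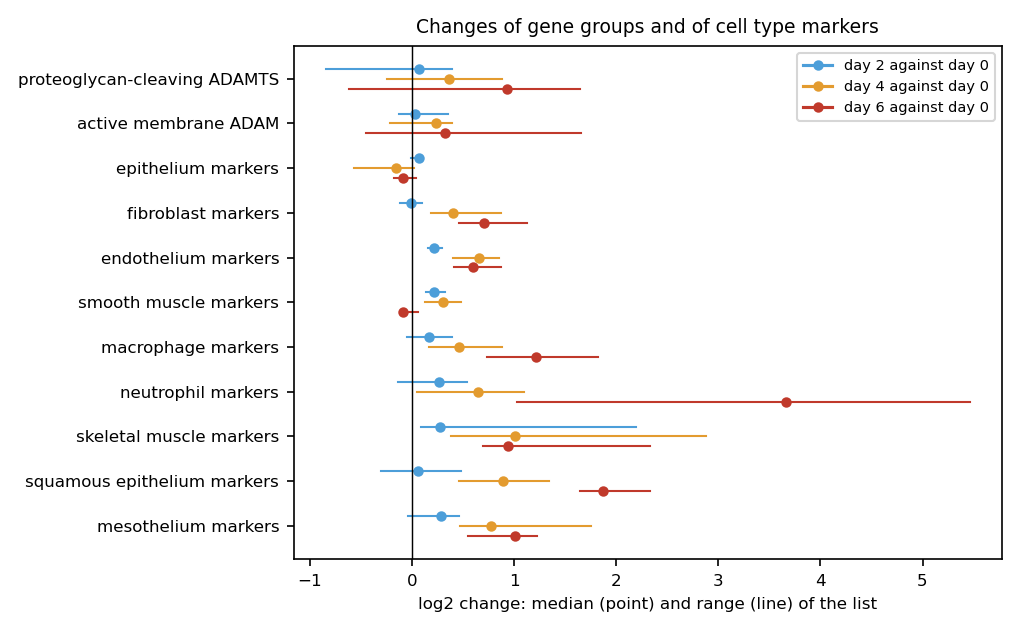
The median (point) and the range over genes (line) of the log2 change from day 0 are shown at day 2, 4 and 6 for the 2 gene groups with the most calls and for 9 marker lists (4 to 9 genes each). The medians of the neutrophil, squamous epithelium and macrophage markers at day 6, at 3.66, 1.87 and 1.21, stand above that of the proteoglycan-cleaving ADAMTS genes at 0.93, and those of the mesothelium and skeletal muscle markers, at 1.005 and 0.936, lie close to it.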

How the data were processed

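Signal intensities of Affymetrix Mouse Genome 430 2.0 arrays were deposited by the authors as MAS5 values, per the submitters' processing notes, already scaled so that the 2% trimmed mean was 500.003 on each of the 23 arrays. Of 45101 probe sets, 64 controls were left out. Symbols came from the platform annotation, which can be old: 34945 probe sets had 1 symbol, 932 had several and 9160 had none, and those with several or none were not named. The members and all gene lists were chosen with earlier results of these data known.

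For each gene, the probe set with the highest mean log2 value over all arrays was kept, without a filter on dim ones. The 4 day means were fitted to log2(signal + 16) in limma 3.58.1 under R 4.3.3 (lmFit, then eBayes with trend), and 5 contrasts were tested, two-sided, with Benjamini-Hochberg adjustment over 18193 genes and a threshold of 0.05. Replicates were separate mice, and their number limits the precision. Per-array values were given for members called in at least 1 comparison, group values for the 8 brightest, and up to 4 called genes with large changes per partner list; uncalled members named beside them were chosen after their values were seen. The alternatives tried changed the probe set rule, filter, pseudocount (1 and 64), normalization, array sets, covariate and trend, and left out each array in turn. Motifs were searched in RefSeq promoters of GRCm38.p6. The fits were tested on simulated data.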

Additional observations from a re-analysis of the deposited data

Results flagged for a closer look

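Among 84 groups of 5 or 6 mice of the named genes, 3 held a mouse far from the others, where chance gives about 1 in 20 groups. Adam15 read 753 units in day 2 mouse 8, while the other day 2 mice read 1009.9 to 1126. Day 2 mouse 8 was also low in squamous epithelium and skeletal muscle markers. Adamtsl2 read 60.2 units in day 4 mouse 6, while the other day 4 mice read 111 to 149.9. Adamtsl3 read 208 units in day 2 mouse 17, while the other day 2 mice read 246 to 269.9, and this mouse still exceeded the untreated mice. Adam15 had no call, and the calls of Adamtsl2 and Adamtsl3 did not end without the array concerned. Those calls compare other days, so leaving out that array alters only the estimate of the spread and says little about these values. The day 4 change of Adamtsl2 and the day 2 change of Adamtsl3 did not pass the threshold with these values in. A low value can itself keep a change from passing, so this does not show that the values had no part.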

How the results depend on the processing

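Of the 33 calls, 21 held with every single array left out, 7 held under all other settings, and 19 under all of these but the covariate and the replicate block. With the mean of a gene's probe sets, Adam10 changed by -0.080 at day 4 against day 0 and by -0.12 against day 2, Adamtsl1 by -0.11 and Timp2 by -0.056 at day 4 against day 0, all against the sign of their calls and with limma adjusted p of 0.470 to 0.827. Members higher at day 4 against day 0 numbered 3 rather than 6 with that mean, 3 with the replicate block and 0 with the hybridization control covariate, and at day 6 against day 0 they numbered 3 rather than 16 with that covariate, the 13 lost calls keeping their sign with changes of 0.15 to 1.95. Day 4 against day 2 gave 0 rather than 3 with the mean of probe sets, all probe sets tested, median centring, the block, mice numbered 1 to 8 alone, no arrays low in squamous RNA and the covariate, and 1 without the trend. Higher members at day 6 against day 4 numbered 4 rather than 7 with the block and with mice 1 to 8 alone. Lower members numbered 1 rather than 0 at day 4 against day 0 with mice 1 to 8 alone and at day 6 against day 0 without arrays low in squamous RNA, and 2 rather than 1 at day 6 against day 4 with the filter, median centring and the covariate. The causes were not tested, except that the block used only 17 arrays and mice 1 to 8 only 19. Without single arrays, higher members ranged from 3 to 7 at day 4 (3 without day 0 mouse 5), 13 to 18 at day 6, 0 to 3 at day 4 against day 2 and 5 to 8 at day 6 against day 4 (5 without day 6 mouse 21). They stayed at 0 at day 2. Lower members ranged from 0 to 1 at days 4 and 6 against day 0 and from 0 to 2 at day 6 against day 4. Whether a shared mouse number links mice cannot be settled from these values. Of 17 same-numbered pairs, 4 had correlated deviations above 0.1, and their median was 0.05, beside 0.004 for the other pairs. The highest, 0.73, joined day 2 mouse 8 and day 4 mouse 8, both low in squamous RNA. The block kept 18 of 33 calls, on only 17 arrays. For genes below the array median, signals near the background limit what these arrays can show.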

Other observations

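The 5 probe sets with several symbols stayed outside the comparisons. Of the 4 shared by Adam1a and Mapkapk5, means over the mice of a day ran from 32.3 to 175 units at day 6 and from 8.31 to 156 units at day 0. The probe set shared by Adam6a and Adam6b averaged 20.4 units at day 0, 23.1 at day 2, 37.1 at day 4 and 31.9 at day 6.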
